A study of Mus musculus with 12 samples.

Results

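The genes described here are 10 markers of homeostatic microglia, most of them surface receptors with which the resting cell senses its surroundings: P2ry12, P2ry13, Gpr34, Cx3cr1, Mertk, Csf1r, Siglech, Selplg and Tmem119, together with the transcription factor gene Sall1. Their members among the data were the ATAC-seq peaks that the deposited tables assign to one of these genes as the gene with the nearest start site. There were 310 such peaks among 281974, namely 241 of 91770 in microglia, 24 of 107627 in NeuN+ nuclei and 45 of 82577 in Olig2+ nuclei. A peak within 1000 bp of the transcription start site (TSS) was called a start-site peak and any other a distal peak. ATAC-seq measures how readily a transposase enters the DNA, so a peak is a stretch of open chromatin and not a level of RNA.

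The 12 libraries came from forebrains of C57BL/6 mice aged 4 months, either wild type (WT) or SgshKO, a knockout of the gene for the lysosomal enzyme N-sulfoglucosamine sulfohydrolase, and each of the 6 groups of sort and genotype had 2 libraries. Microglia were sorted alive by CD11b, low CD45 and CX3CR1, so the product of one of the 10 genes was itself part of the gate. Neuronal nuclei (NeuN+) and oligodendrocyte-lineage nuclei (Olig2+) were lightly fixed and sorted as negative for the myeloid factor PU.1. The labels give neither the sex nor the number of animals behind a library, so the p-values measure the spread between these libraries, which may be technical.

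As background, P2RY12 and P2RY13 respond to extracellular nucleotides and guide microglial processes towards sites of injury. CX3CR1 receives the neuronal chemokine CX3CL1, CSF1R receives the survival factors CSF1 and IL-34, and MERTK recognises dying cells through the bridging proteins GAS6 and PROS1. SALL1 is a transcription factor that maintains microglial identity, and the expression of many of these genes falls when microglia turn to disease-associated states.

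The 250 bases before the start site are shown for Cx3cr1, Mertk, P2ry12 and P2ry13, because the start-site peaks of these genes are set beside their distal peaks in the results that follow. The sequences are from RefSeq (GRCm38.p6, which has the coordinates of mm10), read 5′ to 3′ on the strand of the gene, and capitals mark the bases inside a microglia peak. They are chr9:120068297-120068546 on the minus strand for Cx3cr1, chr2:128698665-128698914 on the plus strand for Mertk, and chr3:59262986-59263235 and chr3:59210883-59211132 on the minus strand for P2ry12 and P2ry13.
Cx3cr1: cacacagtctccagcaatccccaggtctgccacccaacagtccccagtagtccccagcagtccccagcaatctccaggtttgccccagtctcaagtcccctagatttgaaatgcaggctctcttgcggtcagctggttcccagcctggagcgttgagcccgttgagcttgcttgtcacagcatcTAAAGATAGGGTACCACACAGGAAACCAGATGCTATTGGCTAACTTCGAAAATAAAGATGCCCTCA
Mertk: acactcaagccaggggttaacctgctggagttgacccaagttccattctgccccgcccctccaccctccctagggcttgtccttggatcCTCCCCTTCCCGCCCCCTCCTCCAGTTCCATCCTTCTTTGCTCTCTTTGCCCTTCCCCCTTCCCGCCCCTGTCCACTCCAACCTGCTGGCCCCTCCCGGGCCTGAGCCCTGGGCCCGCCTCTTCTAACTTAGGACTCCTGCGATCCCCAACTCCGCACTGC
P2ry12: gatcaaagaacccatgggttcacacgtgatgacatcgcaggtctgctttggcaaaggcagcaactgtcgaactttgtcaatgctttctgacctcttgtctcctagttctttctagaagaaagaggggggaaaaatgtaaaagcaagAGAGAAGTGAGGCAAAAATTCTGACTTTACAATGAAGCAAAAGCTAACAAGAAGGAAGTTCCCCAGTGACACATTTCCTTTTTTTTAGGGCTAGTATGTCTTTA
P2ry13: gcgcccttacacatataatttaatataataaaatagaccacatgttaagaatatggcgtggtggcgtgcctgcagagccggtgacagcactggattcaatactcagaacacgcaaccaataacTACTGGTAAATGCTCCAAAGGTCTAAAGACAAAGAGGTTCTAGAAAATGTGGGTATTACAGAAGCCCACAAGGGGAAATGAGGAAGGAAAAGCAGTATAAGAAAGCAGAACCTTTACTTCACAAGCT

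Of the 250 bases, 66 lay inside the peak at Cx3cr1, 161 at Mertk, 104 at P2ry12 and 127 at P2ry13. The Mertk window had a GC content of 63.6%, the Cx3cr1 window 53.6%, and the P2ry12 and P2ry13 windows 41.6% each. On both strands, the core GAGGAA bound by PU.1 was found in the P2ry13 window, where it begins 48 bases before the TSS (position -48), and not in the other 3. The E-box letters CACGTG or CATGTG, of which CACGTG is the core of the element bound by the MiT/TFE factors named in the study design, were found at -228 in P2ry12 and at -212 in P2ry13. In the window of Siglech, a lectin gene, they lay at -56. Over 32851 RefSeq promoter windows of this length, 23.3% held GAGGAA, 17.6% held one of the E-boxes and 6.75% held the AP-1 letters TGANTCA, which were in none of the windows of the 6 members in the table. These matches describe letters and are not evidence of binding.

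Library totals were 10771659 to 11804222 tags in microglia, and peaks held 48.7% and 55.8% of the tags of the WT libraries and 53.7% and 67.4% of those of the SgshKO libraries. The tables were normalized to 10000000 tags per library, so a value is a number of tags per peak after that scaling. Start-site peaks of 10 of 11 other microglia markers (C1qa, C1qb, Trem2 and others; Aif1 had none) summed to 3249 and 2902 tags in WT and 3203 and 2714 in SgshKO microglia, which overlap. As shares of the tags in peaks they were 0.0583% and 0.0596% in WT and lower in both SgshKO libraries, at 0.0475% and 0.0506%. Of 9 blood myeloid markers 2 had such a peak, and Ccr2, Ly6c2 and S100a9 had none; the sums were 167 and 128 tags in WT and 203 and 201 in SgshKO. The start-site peaks of 3 of 7 border macrophage markers, without Cd163 and Lyve1, summed to 52.7 and 40.7 tags in WT against 87.4 and 69.6 in SgshKO. The blood myeloid and border macrophage sums were thus higher in both SgshKO libraries, and their part in the results was not tested. In these bulk libraries a smaller share of cells with an open site and a less open site in each cell cannot be told apart. At the start site of Sgsh the peak at 8 bp held 184 and 162 tags in WT and 257 and 260 in SgshKO microglia, which does not check the genotype, since a peak can stand on a mutated gene.

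In SgshKO microglia, 20 of the 241 member peaks fell and 1 rose (called by limma, with p-values adjusted over all peaks of the sort by Benjamini-Hochberg and a threshold of 0.05). Of the table, 7.37% of peaks were called, 2.33% as lower and 5.05% as higher, so that the called peaks of the whole table were mostly higher and those of the members mostly lower, at 8.30% lower and 0.415% higher. The median log2 change was -0.51 over the member peaks and -0.08 over the table, and 195 member peaks (80.9%) were below 0 against 55.3% of the table. Both SgshKO libraries lay below both WT libraries at 140 member peaks (58.1%), where the table had 28.1%, and above them at 16 (6.64%), where the table had 23%. A log2 change here is SgshKO minus WT on the log2(tags + 1) scale, which understates the change of weak peaks.

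Of the 20 start-site peaks 2 fell (10.0%, against 1.2% of the start-site peaks of the table) and none rose, with a median of -0.43 against 0.03. Of the 221 distal peaks 18 fell (8.14%, against 2.72% of the distal peaks of the table), with a median of -0.51 against -0.12. Every member but Tmem119 had at least 1 called peak and none of them higher: Cx3cr1 and Mertk had 5 each, Sall1 4, and P2ry12, P2ry13, Csf1r, Siglech, Gpr34 and Selplg 1 each.

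The number of calls, among members and in the table alike, depended on the libraries and the tool. Without WT replicate 1 or WT replicate 2 the WT arm is 1 library, assumed to vary as the SgshKO pair does, and limma called lower only 0.0349% and 0.0174% of all peaks and 0 of the 241 (17 and 25 at an unadjusted p under 0.05). The medians were then -0.47 and -0.58 over members and 0.02 and -0.18 over all microglia peaks. Without SgshKO replicate 1, 67 member peaks were called, 66 of them lower, where 20.5% of the table was called and 14.1% lower. Without SgshKO replicate 2 there were 51, of which 45 were lower, beside 18% of the table called and 5.15% lower. By edgeR there were 49, of which 46 were lower, beside 15.4% and 5.07%. By DESeq2 5 of the 21 calls were kept, all lower, or 2.07% of the members, beside 5.28% of the table called and 0.483% lower.

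**Figure D1:**
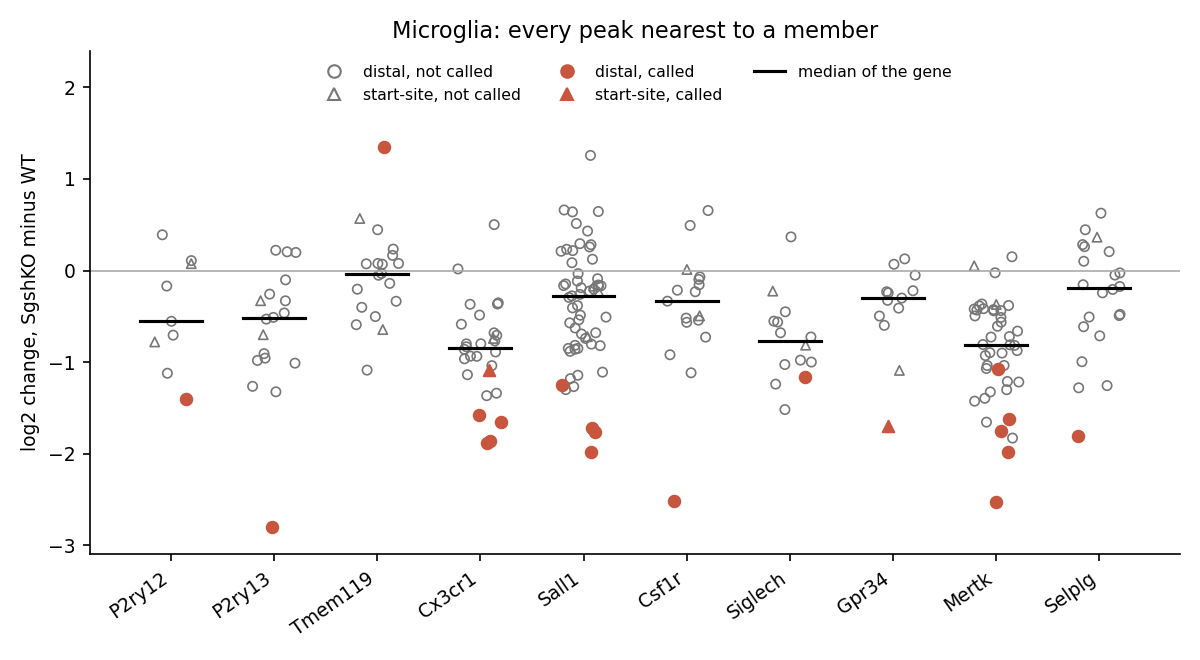
Log2 change (SgshKO minus WT, vertical axis) of each of the 241 microglia peaks nearest to a member, by gene. Triangles are start-site peaks, circles distal peaks, filled red symbols called peaks and black bars the median of the gene; the medians run from -0.85 at Cx3cr1 to -0.03 at Tmem119, and 1 called peak lies above 0.

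The nucleotide receptor genes P2ry12 and P2ry13 lie next to each other on chromosome 3 within Med12l, a Mediator subunit gene, and 1 peak nearest to each of them fell, in neither case at the start site. At P2ry12 the called peak lies at 4817 bp from the TSS (59258002 to 59258334), in intron 29 of 43 of Med12l. It held 51.0 and 51.7 tags in the WT libraries and 22.5 and 15.8 in the SgshKO libraries, a log2 change of -1.40 ± 0.39 (SE; adjusted p = 0.022). The SgshKO libraries were both below the WT libraries there. The peak at the P2ry12 TSS itself (7 bp, 59262867 to 59263089, covering the capitals of the sequence shown) held 38.0 and 15.3 tags in WT and 23.4 and 27.9 in SgshKO, and the genotypes overlapped (0.08 ± 0.44, adjusted p = 0.944). The other start-site peak, at -803 bp, held 38.0 and 21.2 tags in WT and 15.6 and 16.7 in SgshKO. It was separate but not called (-0.78 ± 0.435, adjusted p = 0.295). The P2ry12 peak with the highest mean, at 2103 bp (59260743 to 59261022, intron 32 of Med12l), held 196 and 167 tags in WT and 261 and 216 in SgshKO and did not pass the test (0.39 ± 0.27, adjusted p = 0.424). Thus 1 intronic site fell beside another that held more tags in both SgshKO libraries without being called.

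P2ry13 had the member peak with the lowest log2 change, at -7318 bp (59218076 to 59218324), which by annotation is in exon 5 of 5 of P2ry12. It was a weak site: 9.51 and 7.62 tags in WT, 0.87 and 0 in SgshKO, or 20 reads against 1. The ratio of read rates was 0.0524 with an exact 95% interval of 0.00126 to 0.327 that covers counting error only, and the fitted change of -2.80 ± 0.59 (adjusted p = 0.002) depends on the pseudocount. The strongest P2ry13 site, at -17942 bp in intron 16 of Med12l (59228724 to 59228924), held 330 and 288 tags in WT and 395 and 328 in SgshKO, and the genotypes overlapped (0.22 ± 0.26, adjusted p = 0.664). At the TSS (-11 bp, 59210777 to 59211009), the peak that includes the GAGGAA of the printed sequence held 63.1 and 27.1 tags in WT and 39.8 and 26.9 in SgshKO, also overlapping (-0.33 ± 0.40, adjusted p = 0.681). The other P2ry13 start-site peak, at 642 bp, held 25.9 and 24.6 tags in WT and 16.5 and 13.9 in SgshKO. It was separate but not called (-0.70 ± 0.43, adjusted p = 0.355).

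Gpr34, a receptor for lysophosphatidylserine, lies on chromosome X inside Cask, and its decrease was at the start site. The peak at 43 bp (13632702 to 13632923) held 19.0 and 18.6 tags in WT and 6.93 and 3.71 in SgshKO, or 44 reads against 12, and fell by 1.70 on the log2 scale (SE 0.50, adjusted p = 0.029). The neighbouring start-site peak at -660 bp (13632004 to 13632215) held 51.9 and 45.8 tags in WT and 26.8 and 18.6 in SgshKO (-1.09 ± 0.39, adjusted p = 0.079) and was below the WT libraries in both SgshKO libraries without being called, although edgeR and the other 3 scalings called it (-1.02 to -1.29). The start-site tags of Gpr34 summed to 70.9 and 64.4 in WT against 33.8 and 22.3 in SgshKO, a ratio of 0.414. Its 11 distal peaks, most of them in Cask introns, had a median change of -0.24 and none was called. The strongest of these, at -57684 bp (13574966 to 13575205), held 143 and 146 tags in WT and 132 and 103 in SgshKO (-0.30 ± 0.29, adjusted p = 0.593).

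Cx3cr1, the fractalkine receptor gene on chromosome 9, fell at the start site and along its single intron. Of its 28 peaks 26 were below 0, 24 had both SgshKO libraries below both WT libraries, and 5 were called. The called start-site peak, at -602 bp (120068750 to 120069047), held 97.7 and 69.5 tags in WT and 47.6 and 30.6 in SgshKO (-1.09 ± 0.35, adjusted p = 0.0489). The stronger start-site peak at 37 bp (120068156 to 120068362), which reaches into the printed sequence, held 271 and 241 tags in WT and 148 and 157 in SgshKO (-0.74 ± 0.27, adjusted p = 0.0901), separate but not called, although it was called lower by edgeR (-0.68), with each of the other 3 scalings (-0.69 to -1.10) and without either SgshKO library. Together the 2 start-site peaks summed to 369 and 310 tags in WT and 196 and 188 in SgshKO, a ratio of 0.564. Among distal peaks the smallest p was at 14658 bp in intron 1 (120053521 to 120053755), with 45.8 and 41.5 tags in WT and 12.1 and 10.2 in SgshKO (-1.88 ± 0.42, adjusted p = 0.00376).

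The strongest Cx3cr1 site did not follow. At 13369 bp (120054808 to 120055047), about 1 kb from the called peak at 14658 bp, the libraries held 492 and 443 tags in WT and 521 and 428 in SgshKO (0.02 ± 0.25, adjusted p = 0.98). Its change was below 0 after quantile normalization, where it was called (-0.56), and with the in-peak sum as scale (-0.19). Since the cells were sorted on CX3CR1 protein, cells without it at the surface fell outside the gate.

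**Figure D2:**
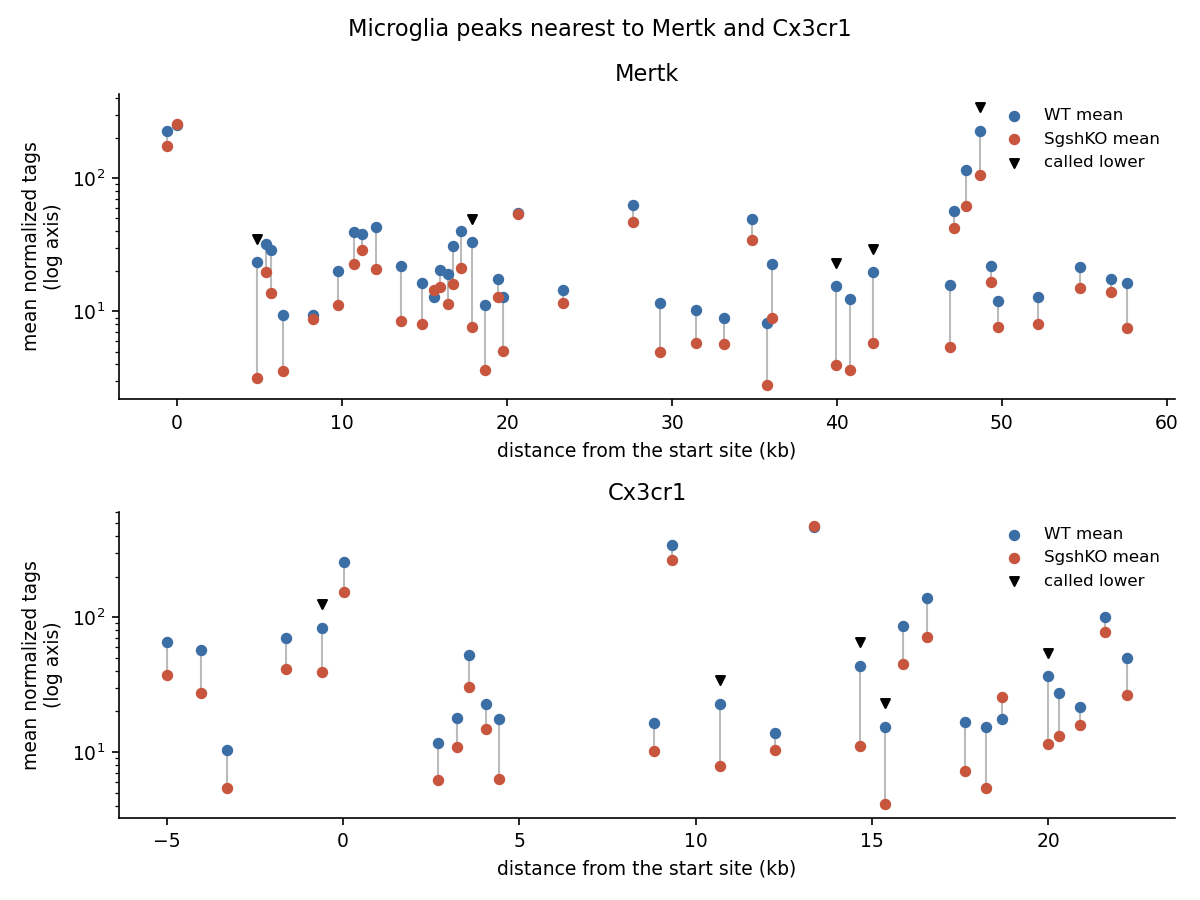
Mean normalized tags (log axis) of each microglia peak nearest to Mertk (top) and Cx3cr1 (bottom) against its distance from the start site in kb. Blue points are the means of the 2 WT libraries, red points those of the 2 SgshKO libraries, grey lines join them, and black triangles mark the 5 called peaks of each gene. At Mertk the pair at -34 bp is close together and most pairs in the gene body are apart.

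Mertk, the phagocytic receptor gene on chromosome 2, had the largest drop in summed distal signal among the 10 genes. Its summed start-site signal overlapped between the genotypes. Its 44 peaks lay between -595 and 57561 bp from the TSS, 42 were below 0, and 36 had both SgshKO libraries below both WT libraries. The 42 distal peaks summed to 1308 and 1268 tags in WT and 763 and 697 in SgshKO, a ratio of 0.567. The start-site peaks summed to 516 and 435 tags in WT and 438 and 426 in SgshKO, and the libraries overlapped. The peak at -34 bp (128698754 to 128699008), which holds the capitals of the printed sequence, had 279 and 219 tags in WT and 246 and 267 in SgshKO (0.05 ± 0.27, adjusted p = 0.937). The start-site peak at -595 bp held 237 and 216 tags in WT and 192 and 159 in SgshKO. It was separate but not called (-0.37 ± 0.27, adjusted p = 0.453).

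The Mertk peak with the smallest p of any member was at 4830 bp in intron 1 of 18 (128703644 to 128703847). It held 17.3 and 29.7 tags in WT and 2.6 and 3.71 in SgshKO, or 55 reads against 7 (-2.52 ± 0.51, adjusted p = 0.00131). In the same intron the peak at 17896 bp (128716623 to 128717000) held 38.0 and 28.0 tags in WT and 6.06 and 9.28 in SgshKO (-1.98 ± 0.46, adjusted p = 0.00502). The strongest distal site of Mertk also fell: at 48688 bp in intron 4 (128747497 to 128747710) it held 243 and 210 tags in WT and 110 and 103 in SgshKO (-1.08 ± 0.28, adjusted p = 0.0136). It was the only called member peak in the upper quartile of signal of the table, and its neighbour at 47797 bp held 118 and 113 tags in WT and 61.5 and 63.1 in SgshKO without being called (-0.88 ± 0.31, adjusted p = 0.0794).

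Csf1r, the receptor gene on which microglial survival depends, had overlapping genotypes at its strongest site and lower SgshKO values, not called, at its main start-site peak. The strongest peak, at 2975 bp in intron 2 (chromosome 18, 61108444 to 61108651), had 982 and 865 tags in WT and 970 and 766 in SgshKO (-0.10 ± 0.23, adjusted p = 0.856). It was called lower after quantile normalization (-0.79). The start-site peak at 297 bp (61105763 to 61105975) held 112 and 136 tags in WT and 91.8 and 83.6 in SgshKO (-0.50 ± 0.30, adjusted p = 0.348), separate and called with in-peak scaling but not here. The 1 called Csf1r peak was a weak intergenic site at -4665 bp (61100773 to 61101042), with 9.51 and 10.2 tags in WT and 2.6 and 0 in SgshKO. It had 23 reads against 3, a ratio of read rates of 0.137 with an exact 95% interval of 0.0263 to 0.452, and a fitted change of -2.51 ± 0.60 (adjusted p = 0.00643), which was -1.59 without SgshKO replicate 2.

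Siglech, a microglial sialic acid-binding lectin gene on chromosome 7, had a lower distal signal and overlapping values at its strongest start-site peak. Its 12 distal peaks summed to 510 and 441 tags in WT and 319 and 250 in SgshKO (ratio 0.598), with a median change of -0.85. The called peak at 11375 bp, at the end of the transcript (55779399 to 55779719), held 106 and 78.8 tags in WT and 51.1 and 31.6 in SgshKO (-1.17 ± 0.35, adjusted p = 0.0301). The start-site peak at -14 bp (55768050 to 55768290) held 199 and 129 tags in WT and 143 and 131 in SgshKO, and the genotypes overlapped (-0.22 ± 0.29, adjusted p = 0.702). The weaker start-site peak at -980 bp held 20.7 and 14.4 tags in WT and 9.52 and 9.28 in SgshKO. It was separate but not called (-0.815 ± 0.474, adjusted p = 0.32).

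Selplg and Tmem119, both on chromosome 5, were the members whose strongest start-site peak was higher in both SgshKO libraries, although neither was called. At Selplg, which encodes the selectin ligand PSGL-1, the peak at 54 bp (113830346 to 113830548) held 220 and 203 tags in WT and 283 and 262 in SgshKO (0.36 ± 0.27, adjusted p = 0.446). At Tmem119, a microglial membrane protein gene, the peak at -151 bp (113800390 to 113800617) held 440 and 412 tags in WT and 824 and 484 in SgshKO (0.57 ± 0.26, adjusted p = 0.182). After quantile normalization these 2 changes were -0.03 and -0.02, while median-of-ratios scaling and edgeR called the Tmem119 peak higher (0.62 and 0.63), so the direction and the call depended on the scaling. SgshKO replicate 1, the library with the highest share of tags in peaks, was also the highest at the Tmem119 start site, where the change was 0.18 without it and 0.95 without SgshKO replicate 2.

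The 1 member peak that rose was an intergenic Tmem119 peak at 9353 bp (113790892 to 113791106), with 10.4 and 23.7 tags in WT and 39.8 and 43.6 in SgshKO (1.35 ± 0.43, adjusted p = 0.0446). It was called neither with in-peak scaling nor by DESeq2, and it lost its call when either WT library was left out (0.79 without replicate 1, 1.91 without replicate 2). The strongest distal peak of Tmem119, at 13208 bp (113787033 to 113787255), held 451 and 474 tags in WT and 780 and 508 in SgshKO (0.44 ± 0.25, adjusted p = 0.303, and -0.15 after quantile normalization). At Selplg a peak at 13857 bp fell (113816496 to 113816793), with 21.6 and 12.7 tags in WT and 3.46 and 4.64 in SgshKO (-1.81 ± 0.51, adjusted p = 0.0232). Its strongest distal peak, at -11552 bp at the end of the neighbouring gene Coro1c (113841936 to 113842171), held 365 and 317 tags in WT and 417 and 369 in SgshKO (0.21 ± 0.25, adjusted p = 0.685), a change that was -0.31 after quantile normalization and -0.001 with in-peak scaling.

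**Figure D3:**
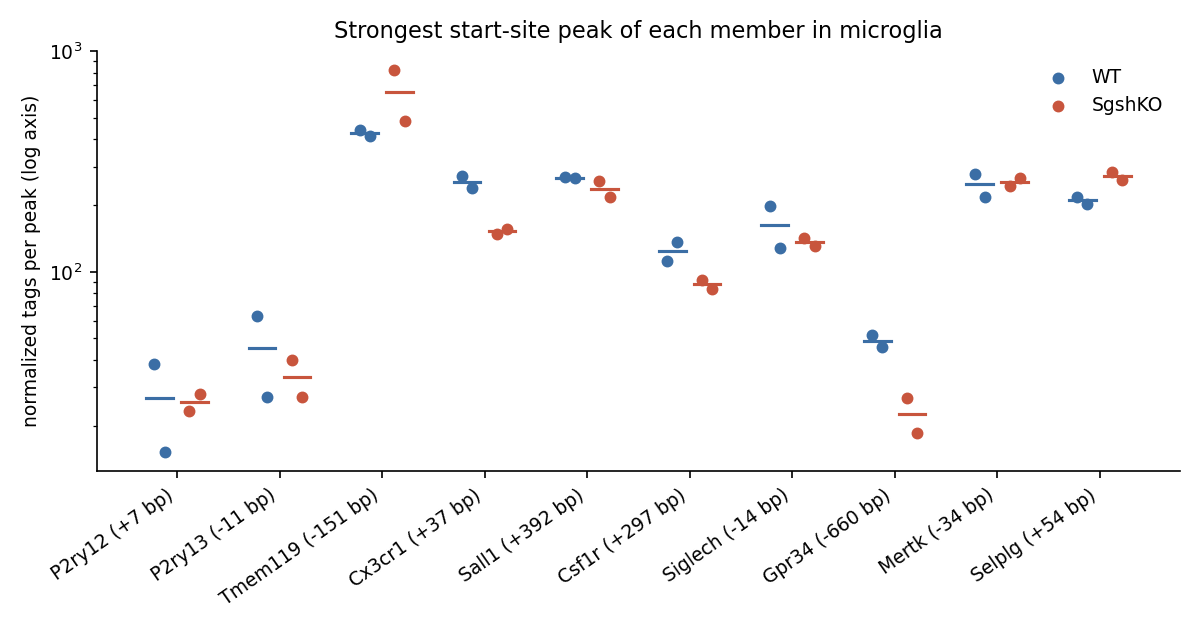
Normalized tags per peak (log axis) in each microglia library at the start-site peak with the highest mean for each member, with its distance from the start site in bp. Points are libraries and bars the mean of 2; both SgshKO points lie below both WT points at Cx3cr1, Sall1, Csf1r and Gpr34, and above them at Tmem119 and Selplg.

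Sall1, on chromosome 8, had the widest spread of peaks of the members: its 57 peaks in microglia lay between -597376 and 9489 bp from the TSS, and 4 of the 54 distal peaks fell, each of them intergenic. The smallest p was at -429916 bp (89473954 to 89474203), with 25.1 and 18.6 tags in WT and 10.4 and 1.86 in SgshKO (-1.99 ± 0.54, adjusted p = 0.0178). Without SgshKO replicate 2, the lowest library there, the change was -0.99 and not called, and DESeq2 did not call it either. At -340765 bp (89384824 to 89385031) the libraries held 21.6 and 22.9 tags in WT and 7.79 and 4.64 in SgshKO (-1.72 ± 0.48, adjusted p = 0.022). The other two called peaks, at -67251 and -527849 bp, changed by -1.76 and -1.25. In each of these the SgshKO libraries were below the WT libraries.

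The strong Sall1 sites near the gene were not called with the deposited totals, and both named here were called lower after quantile normalization (-0.72 and -0.59). The peak at 1327 bp in intron 1 (89042717 to 89042954) held 437 and 416 tags in WT and 407 and 344 in SgshKO (-0.19 ± 0.25, adjusted p = 0.712). The strongest start-site peak, at 392 bp (89043660 to 89043881), held 270 and 265 tags in WT and 257 and 219 in SgshKO (-0.17 ± 0.26, adjusted p = 0.758). The median change over the 57 peaks was -0.28, nearer to that of the table than the medians of Cx3cr1 and Mertk.

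Weak peaks of the whole table also tended downwards in SgshKO, so the distal members were set beside distal peaks of like signal. In the weakest quartile of the table by mean tags, the median change was -0.85 over 81 distal member peaks and -0.38 over all distal peaks. In the next quartiles it was -0.42 over 46 against -0.15, -0.50 over 54 against -0.10, and -0.18 over 40 against 0.10. The member median was thus below that of the table in each quartile, and 11 of the 18 distal peaks that fell were in the weakest one, as were 1017 of the 1848 in the table. This is a description with no test. Of the 20 member peaks of both kinds called lower, 12 were in the weakest quartile, where few reads are counted. Among all microglia peaks, 1161 of the 2134 called lower were in that quartile.

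**Figure D4:**
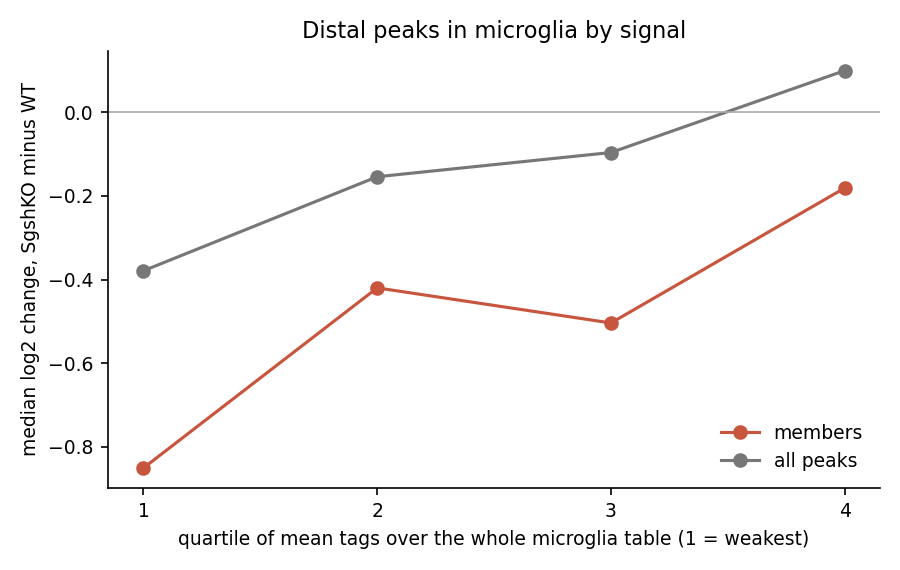
Median log2 change (SgshKO minus WT) of distal microglia peaks in each quartile of mean tags over the whole table, from the weakest (1) to the strongest (4). Red points are the member peaks (81, 46, 54 and 40 in the 4 quartiles) and grey points all distal peaks; the red points lie below the grey ones in each quartile, at -0.85 in the first and -0.18 in the last.

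Other genes of these pathways were counted by nearest gene in microglia. Of 20 other homeostatic microglia genes, all with a peak, 42 of 389 peaks fell (10.8%) and 2 rose, with a median of -0.58, beside 2.33% lower, 5.05% higher and a median of -0.08 in the table; 11 of the genes had a called peak.

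Of the ligands and signalling partners of the receptors (Cx3cl1, Il34, Csf1, Gas6, Pros1, Tyrobp and others), 10 of 12 genes had a peak, and 3 of 95 peaks fell (3.16%) while 2 rose (2.11%), with a median of -0.17, shares near or below the 2.33% and 5.05% of the table. The rising peaks were at Nt5e, the ecto-nucleotidase gene that makes adenosine, and at Csf1. The Nt5e peak at -54038 bp held 0.86 and 0.85 tags in WT and 12.99 and 9.28 in SgshKO (2.69 ± 0.56, adjusted p = 0.00182). Its WT values are near 0, so the fitted change depends on the pseudocount. The Csf1 peak at -23008 bp held 105 and 70.3 tags in WT and 201 and 186 in SgshKO (1.16 ± 0.30, adjusted p = 0.0119). These 2 had the smallest p of the list, and the 3 peaks that fell are not named.

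In NeuN+ nuclei the members had few and weak peaks. Tmem119, Cx3cr1 and Csf1r had no peak, and the 24 peaks of the other members had 5.60 to 27.5 tags on average, with 1 start-site peak, at Mertk (-652 bp, chromosome 2, 128698150 to 128698377; 16.4 and 11.3 tags in WT, 6.28 and 8.25 in SgshKO, -0.84 ± 0.32, adjusted p = 0.053). Of all NeuN+ start-site peaks 44.9% were called lower. Of the 24 peaks 4 fell and 1 rose, or 20.8%, where 29.8% of the table was called (19.6% lower, 10.2% higher), so the members' share was not above the background. The peaks that fell were nearest to Selplg and lie in introns of Coro1c, a gene for an actin-binding protein. The clearest, at -24211 bp (chromosome 5, 113854609 to 113854815), held 15.9 and 14.7 tags in WT and 8.38 and 5.08 in SgshKO (-1.11 ± 0.32, adjusted p = 0.0142). The peak that rose was at -20266 bp of P2ry13 in intron 16 of Med12l (chromosome 3, 59231021 to 59231276), with 3.40 and 2.82 tags in WT and 12.6 and 10.8 in SgshKO, or 11 reads against 35 (1.63 ± 0.35, adjusted p = 0.00241).

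The split by direction depended on the scaling in these nuclei, whose libraries had 26.7% and 25.9% of tags in peaks in WT and 21.5% and 21.2% in SgshKO. The start-site peaks of 8 of 8 neuron markers summed to 897 and 812 tags in WT against 478 and 498 in SgshKO. Those of 5 of 8 oligodendrocyte markers (without Mog, Mag and Olig2) summed to 200 and 175 against 97.0 and 105, and those of 2 of 11 other microglia markers (Spi1, C1qa and Trem2 are among those with no such peak) to 117 and 110 against 80.3 and 68.6. All 3 sums were lower in both SgshKO libraries, and their part in the results was not tested. The sums were also lower for the astrocyte markers (171.6 and 152.5 against 117.3 and 127.6) and the blood myeloid markers (58.9 and 58.2 against 43.3 and 31.1). Of all NeuN+ start-site peaks, 70.9% had both SgshKO libraries below both WT libraries. With in-peak scaling, which moved the median of the table from -0.23 to 0.05, 5 member peaks rose and none fell, and with median-of-ratios scaling or edgeR 5 rose and 2 fell. The P2ry13 peak was called higher under each of these, and the Selplg peak at -24211 bp was below 0 but not called with in-peak scaling. The member counts of these fits, and those that follow, stand without the share of all NeuN+ peaks called in the same fit. They therefore do not set the members apart from the background. Called peaks numbered 0 without SgshKO replicate 1 or 2 (6 and 9 at an unadjusted p under 0.05) and by DESeq2 (2 at an unadjusted p under 0.05), and 1 without either WT library.

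In Olig2+ nuclei the peaks belonged to 4 members, Sall1 (30), Selplg (8), Mertk (4) and Cx3cr1 (3). Of the 45 peaks 7 rose and 1 fell, or 15.6% and 2.22%, where 8.17% of the table was called higher and 11.7% lower (19.8% in all). All 5 start-site peaks, 3 at Sall1 and 2 at Mertk, were not called. Sall1 had 5 of the peaks that rose and the 1 that fell, and its distal peaks summed to 527 and 507 tags in WT and 628 and 653 in SgshKO.

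The clearest difference was an intergenic site at -99694 bp of Sall1 (chromosome 8, 89143751 to 89143962), with 14.0 and 12.8 tags in WT and 46.1 and 51.2 in SgshKO (1.79 ± 0.22, adjusted p = 9.11e-07). A second, at -197735 bp (89241765 to 89242029), held 53.9 and 56.8 tags in WT and 119 and 93.1 in SgshKO (0.92 ± 0.15, adjusted p = 4.54e-05). Close to the gene, the peak at 1274 bp in intron 1 (89042752 to 89043025) held 119 and 99.7 tags in WT and 140 and 155 in SgshKO (0.43 ± 0.12, adjusted p = 0.00966). The strongest Sall1 start-site peak, at 549 bp (89043502 to 89043725), held 118 and 118 tags in WT and 140 and 132 in SgshKO without being called (0.20 ± 0.11, adjusted p = 0.21). The SgshKO libraries were above the WT libraries at each of these sites.

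Mertk, which microglia and astrocytes are known to express, had a called site in these nuclei at 10525 bp in intron 1 (chromosome 2, 128709265 to 128709615). It held 7.26 and 3.07 tags in WT and 18.5 and 14.6 in SgshKO, or 20 reads against 52 (1.59 ± 0.35, adjusted p = 0.00184). The strongest Mertk start-site peak, at -639 bp (128698159 to 128698394), held 44.6 and 40.9 tags in WT and 28.3 and 31.9 in SgshKO and was not called (-0.49 ± 0.19, adjusted p = 0.069). Leaving out a library gave 4 to 10 called member peaks, with 4 left without WT replicate 2 and 5 without WT replicate 1, and DESeq2 called 3. Of the 11 other microglia markers 2 had a start-site peak in Olig2+ nuclei (not Spi1, C1qa, Trem2 or Tyrobp), and these summed to 111 and 115 tags in WT against 131 and 150 in SgshKO. The start-site peaks of 8 of 8 oligodendrocyte markers summed to 2846 and 2816 tags in WT against 2389 and 2435 in SgshKO, and the part of both in the results was not tested.

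**Figure D5:**
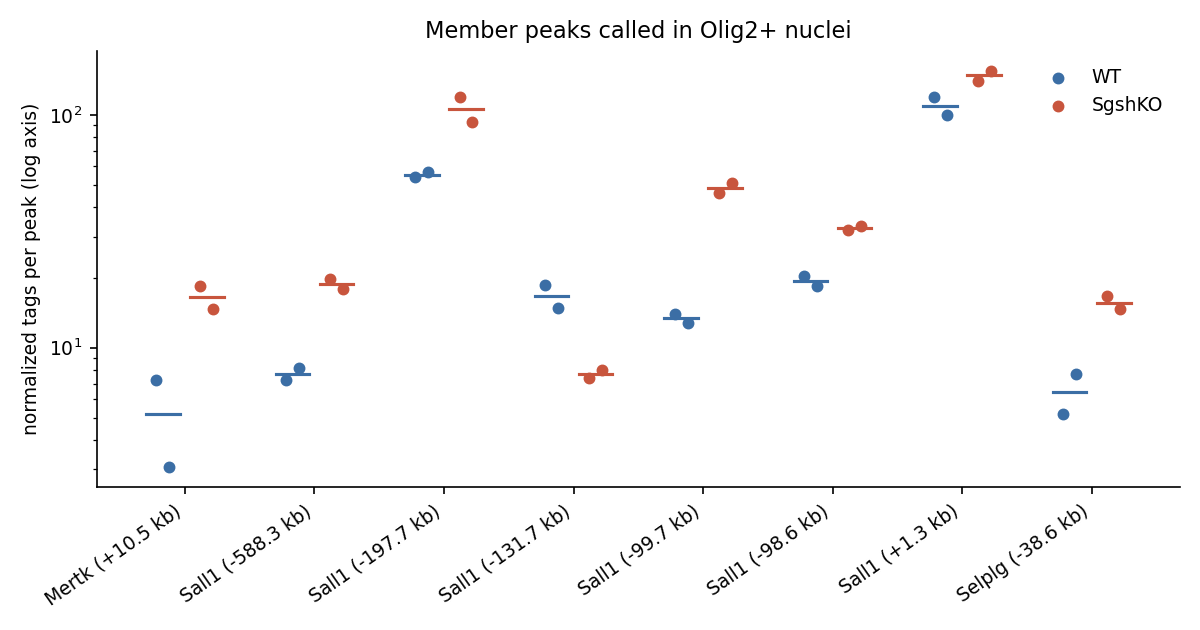
Normalized tags per peak (log axis) in each Olig2+ library at the 8 called member peaks, named by gene and distance from the start site in kb. Points are libraries and bars the mean of 2; both SgshKO points lie above both WT points at 7 peaks and below them at the Sall1 peak at -131679 bp.

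Whether the genotype effect differed between sorts could be tested where a microglia peak and a nuclei peak overlapped reciprocally by 50%, 1 to 1, in a model of the 8 libraries. The tables were normalized separately, so only the changes were compared and not the levels. Against NeuN+ nuclei 9 member peaks could be tested and none was called (limma; 3 at an unadjusted p under 0.05), where 29.3% of 24964 shared peaks were. Against Olig2+ nuclei 1 of 10 was called, where 15.2% of 22710 were. It was a Sall1 peak at 3089 bp, with 70.0 and 74.6 tags in WT and 51.9 and 28.8 in SgshKO microglia, and 13.5 and 14.3 in WT and 20.9 and 19.3 in SgshKO Olig2+ nuclei. The change in microglia minus that in Olig2+ nuclei was -1.38 ± 0.42 (adjusted p = 0.0333). This call was kept without microglia SgshKO replicate 1 and lost without any of the other 7 libraries, with a difference between -0.97 and -1.80.

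At the strong Sall1 intron site (1327 bp in the microglia table, 1274 bp in the Olig2+ table) the difference was -0.62 ± 0.22 (adjusted p = 0.0641), so that the rise in Olig2+ nuclei was not shown to differ from the value in microglia. With overlaps of at least 1 bp, 14 peaks could be tested and 2 were called, the Mertk peak at 10741 bp as well. That Mertk peak (128709546 to 128709767) held 35.4 and 44.1 tags in WT and 17.3 and 27.9 in SgshKO microglia. It overlaps the Olig2+ Mertk peak at 10525 bp (128709265 to 128709615) only in part, so the 2 cover largely different bases (difference -2.41 ± 0.54, adjusted p = 0.0065). The share of all peaks called under this rule is not given here, so the count does not set the members apart from the background. The Sall1 sites at -99694 and -197735 bp had no 1-to-1 partner in the microglia table and could not be compared.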

How the data were processed

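The authors deposited 1 table of peaks per sort, with the gene of the nearest start site, the distance to it and an annotation. The signal that the authors deposited is a tag count per peak, scaled to 10000000 tags per library, per the file headers. The submitters' processing notes name Bowtie2, HOMER and mm10; for versions, duplicates and read shifting, the sources used here give nothing. Peaks were merged over both genotypes, per the peak names. Undoing the scaling gave whole reads for 100% of values (within 0.01), which edgeR 4.0.16 and DESeq2 1.42.0 used.

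Within each whole table, log2(tags + 1) was compared between genotypes with limma 3.58.1 in R 4.3.3 (intensity trend, two-sided, no covariate, no filter), with Benjamini-Hochberg adjustment. The model across sorts used 1-to-1 shared peaks. An SE follows a log2 change; the n is 2 libraries per group. The members, lists and tests were chosen with earlier results of these data known. Named peaks were, per member in microglia, the start-site and distal peak with the highest mean and the peak with the smallest p, and up to 12 called peaks. In nuclei they were the start-site peak with the highest mean and up to 5 called peaks. For the list of ligands and partners 2 peaks were named; those of the other list are not reported here. The Cx3cr1 peak at -602 bp, the Mertk peak at 47797 bp, the Sall1 peaks at -67251, -527849 and -131679 bp and the peaks named in the comparison between sorts were chosen after their values were seen. So were the microglia start-site peaks at -803 bp of P2ry12, 642 bp of P2ry13, -595 bp of Mertk, -980 bp of Siglech and 872 bp of Tmem119. Transcripts were paired with symbols, and promoters taken for 6 of 10 members, from RefSeq tables of GRCm38.p6.

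On simulated counts with 100 peaks changed at each size, limma recovered 92% of 4-fold and 22% of 2-fold changes in the microglia table (91770 peaks), 78% and 10% in the NeuN+ table (107627) and 91% and 32% in the Olig2+ table (82577). The simulated spread was a fixed value, not one estimated from these libraries, and only peaks above a minimum of reads were changed. With so few changed peaks the adjusted threshold is also stricter than in the real tables. The recovery is therefore not that of these data.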

Additional observations from a re-analysis of the deposited data

Results flagged for a closer look

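The Sall1 peak at 3089 bp was called in neither sort alone, but its genotype effect differed between them: the log2 change in microglia minus that in Olig2+ nuclei was -1.38 (SE 0.42, limma adjusted p = 0.0333 over 22710 shared peaks). Both SgshKO libraries were below both WT libraries in microglia and above them in Olig2+ nuclei. It was picked out because the test of the difference itself passed the threshold. It was the 1 called of 10 member peaks, where 15.2% of all shared peaks were called. As described above, the call depended on the libraries included.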

How the results depend on the processing

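In microglia the number of called member peaks (21) was 69 with in-peak scaling, 38 with median-of-ratios scaling, 39 after quantile normalization, 49 by edgeR, 5 by DESeq2, 10 of 155 without the 25% of peaks with the lowest mean and 39 at an adjusted p under 0.1; leaving out 1 library gave 0 to 67. In NeuN+ nuclei (5) it was 2 without those 25%, 3 after quantile normalization, 0 by DESeq2 and 12 at an adjusted p under 0.1, and 0 to 1 without a library. In Olig2+ nuclei (8) it was 3 by DESeq2, 13 at an adjusted p under 0.1 and 4 to 10 without a library. Pseudocounts of 0.5 and 5 gave 16 and 25, 5 and 7, and 8 and 8. In microglia those pseudocounts called 6.8% and 9.05% of the table. In-peak scaling called 28.6% of the members beside 15.8% of the table. Median-of-ratios scaling called 15.8% beside 13%, and quantile normalization 16.2% beside 11.4%. An adjusted p under 0.1 gave 16.2% beside 11.6%. Without the 25% of peaks with the lowest mean, the share of the members was below that of the table, at 6.45% beside 7.42%. With start sites at 500 bp, 1 start-site member peak was called in microglia. This count, the NeuN+ and Olig2+ counts and those between sorts below stand without the share of all peaks called in the same fit. They therefore do not set the members apart from the background.

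Deviations of same-numbered libraries were hardly correlated across peaks (0.042, 0.0036 and 0.0007 in microglia, NeuN+ and Olig2+). A correlation across peaks cannot show a shift of a whole library, so it does not decide whether the numbers pair libraries. In microglia, replicate 1 had a higher share of tags in peaks than replicate 2 in WT (55.75% and 48.68%) and SgshKO (67.44% and 53.65%). With the replicate number as a block, 52, 7 and 8 member peaks were called. In microglia that was 21.6% of the members, beside 15.8% of the table.

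Between sorts, scaling by the shared peaks gave 2 called member peaks against NeuN+ nuclei (0) and 2 against Olig2+ nuclei (1), overlaps of 1 bp gave 2 against Olig2+, and leaving out 1 library gave 0 to 3 and 0 to 2; the scaling and the omissions were chosen after the data were seen.

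Named peaks that changed direction had small changes and were not called in the fit reported. In-peak scaling gave -0.12 at P2ry12 7 bp, -0.19 at Cx3cr1 13369 bp, -0.16 at Mertk -34 bp and -0.001 at Selplg -11552 bp. Quantile normalization gave -0.27 at P2ry13 -17942 bp, -0.02 at Tmem119 -151 bp, -0.15 at Tmem119 13208 bp, -0.56 at Cx3cr1 13369 bp, -0.37 at Mertk -34 bp, -0.03 at Selplg 54 bp and -0.31 at Selplg -11552 bp. Without 1 library the change ran from -0.56 to 0.71 at P2ry12 7 bp, -0.93 to 0.26 at P2ry13 -11 bp, -0.13 to 0.16 at Cx3cr1 13369 bp, -0.27 to 0.073 at Csf1r 2975 bp, -0.54 to 0.086 at Siglech -14 bp and -0.12 to 0.22 at Mertk -34 bp. The cause was not tested. With 2 libraries per group, a peak that was not called is not shown to be unchanged. Most 2-fold changes were missed on the simulated counts, whose settings differ from these data.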
